A study of Mus musculus with 5 samples.

Results

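The genes described here are 7 members of the plasminogen activation system and of the serpin family, of 21835 genes measured by bulk RNA sequencing of murine lung cancer-associated fibroblasts (CAFs). They are the activators *Plau* and *Plat*, the receptor *Plaur*, the inhibitors *Serpine2* and *Serpinb2*, and the serpins *Serpinf1* and *Serpinh1*. They were chosen by name with their values in the control and miR-200 samples already known, so their differences between these groups are given as a description and without a test. CAF-vec (2 samples, genotype given as wild-type control) carried the empty vector. CAF-200 (3 samples, genotype given as miR-200 overexpression) carried the gene cluster of miR-200a, miR-200b and miR-429. In both, the vector was delivered by lentivirus and infected cells were kept as a population under drug selection. The labels describe G418 selection of CAFs, whereas the study's cell culture methods name a hygromycin vector and infection of normal lung fibroblasts. The study's results and its RNA sequencing methods name CAFs, as the labels do. The strain, age and number of the mice are not given. The methods also describe RNA of both groups as prepared in 3 replicates, whereas the labels used here give 2 CAF-vec samples. The labels do not say whether the samples of a group came from separate cultures, so the errors and *p* values measure the spread between these samples only, which may be technical.

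Plasminogen is an inactive protease precursor that urokinase (encoded by *Plau*) and tissue-type plasminogen activator (*Plat*) cut into plasmin, which degrades fibrin and activates other matrix proteases. Urokinase works at the cell surface when it is bound to its receptor (*Plaur*). Serpins are proteins that mostly inhibit serine proteases by trapping them, and those that trap the activators include PAI-2 (*Serpinb2*) and protease nexin-1 (*Serpine2*), whereas PEDF (*Serpinf1*) and HSP47 (*Serpinh1*) share the fold without inhibiting proteases.

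The miRNAs that distinguish the groups are shown because bases 2 to 8, the seed in capitals, pair with target transcripts. The mature sequences are from RefSeq (GRCm38.p6), where all 3 lie on the minus strand of chromosome 4.
miR-200a-3p (chr4:156054911-156054932): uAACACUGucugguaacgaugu
miR-200b-3p (chr4:156055685-156055706): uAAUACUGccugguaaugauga
miR-429-3p (chr4:156053916-156053937): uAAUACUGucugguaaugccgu
The seeds of miR-200b and miR-429 are the same, and a 3′-UTR that pairs with them holds CAGTATT, whereas pairing with miR-200a needs CAGTGTT. In the longest annotated 3′-UTR, 0 of the 7 members held CAGTATT, which 15.7% of 12060 genes held. The letters CAGTGTT occurred in 2 of the 7 members and in 20.9% of genes. Both windows are shown on the transcript strand of GRCm38 with the match in capitals.
*Serpinb2* (match at chr1:107525202-107525208): tttagtttttaCAGTGTTatttattgttt
*Serpinh1* (match at chr7:99345830-99345836): caacagtcaatCAGTGTTcatatttatgg
The *Serpinb2* match began at base 261 of a 657-base 3′-UTR and was followed by an A, the longer form found in 4.93% of genes. The *Serpinh1* match began at base 284 of 744 and was not followed by an A. The 3′-UTRs of the members were 365 (*Serpinf1*) to 935 bases (*Plau*) long, against a median of 1174 bases over all genes with one. A match is a description of letters and not of binding.

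The values are CPM, which the authors normalized for library size, and from which the depth of each sample cannot be read. Columns summed to between 999956 and 1000111 CPM. Of the 12 fibroblast markers, 11 were at 1 CPM or more in every sample, and their sum was 13509 to 17338 CPM in CAF-vec, against 11467 to 12403 CPM with miR-200. The fibroblast markers went both ways, since all CAF-200 samples were above both controls for 5 (*Col3a1*, *Dcn*, *Lum*, *Thy1* and *Acta2*) and below both for 3 (*Col1a1*, *Col1a2* and *Pdgfrb*). All 8 epithelial markers were below 0.5 CPM, with *Krt18*, *Sftpc* and *Esrp1* at 0. The sum of 7 macrophage and leukocyte markers was 8.34 to 9.40 CPM in CAF-vec, against 12.2 to 12.9 CPM with miR-200, with *Adgre1* and *Cd3e* at 0. *Lyz2* alone carried this difference, at 1.11 and 1.99 CPM in CAF-vec and 7.48, 7.16 and 6.48 CPM in CAF-200, and without it the sum was lower in CAF-200 (7.23 to 7.41 against 4.73 to 5.99 CPM). The sums were lower in CAF-200 for 7 endothelial markers (1.98 to 3.37 against 0.902 to 1.12 CPM, *Emcn* and *Cldn5* at 0) and for 5 mesothelial markers (5.99 to 7.15 against 1.26 to 1.90 CPM, *Lrrn4* at 0). Of the endothelial markers, *Kdr* alone was below both controls in all CAF-200 samples (2.31 and 1.82 against 0.690, 0.612 and 0.405 CPM). *Cdh5* was above both controls and 5 overlapped. Of the mesothelial markers, *Msln* (5.74 and 6.68 against 1.54, 1.15 and 0.986 CPM) and *Upk3b* were below and 3 overlapped. *Kdr* made up most of the endothelial sum in CAF-vec, and *Msln* most of the mesothelial sum. *Zeb1*, a known miR-200 target, was at 43.5 and 50.7 CPM in CAF-vec and at 37.8, 37.5 and 34.1 CPM in CAF-200 (log2 fold-change -0.36, limma adjusted *p* = 0.0504), and the table has 0 rows for the precursors of the 3 miRNAs.

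The members differed in direction. The CAF-200 samples lay above both CAF-vec samples for *Plaur*, *Serpinb2* and *Serpinf1* and below both for *Serpine2* and *Serpinh1*, whereas the groups overlapped for *Plau* and *Plat*. These are 5 of 7 members whose groups did not overlap, as was the case for 61.6% of the 12175 genes tested (24.3% higher and 37.3% lower in CAF-200). The 5 include *Serpinb2*, which passed the filter on low values through CAF-200 only, so a difference was built into its being tested. Over all genes tested, the median log2 fold-change was -0.09 on the deposited scale. After each sample was centred on its median, the CAF-200 samples lay above both CAF-vec samples for *Plau* and *Plat* as well and overlapped them for *Serpinh1*, so the order of the groups for these 3 genes depended on the scaling. The groups then did not overlap for 6 of the 7 members, *Serpinb2* again included, and for 60.7% of all genes (30.8% higher and 29.9% lower). In bulk RNA, fewer cells that express a gene and less RNA per cell cannot be told apart.

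**Figure D1:**
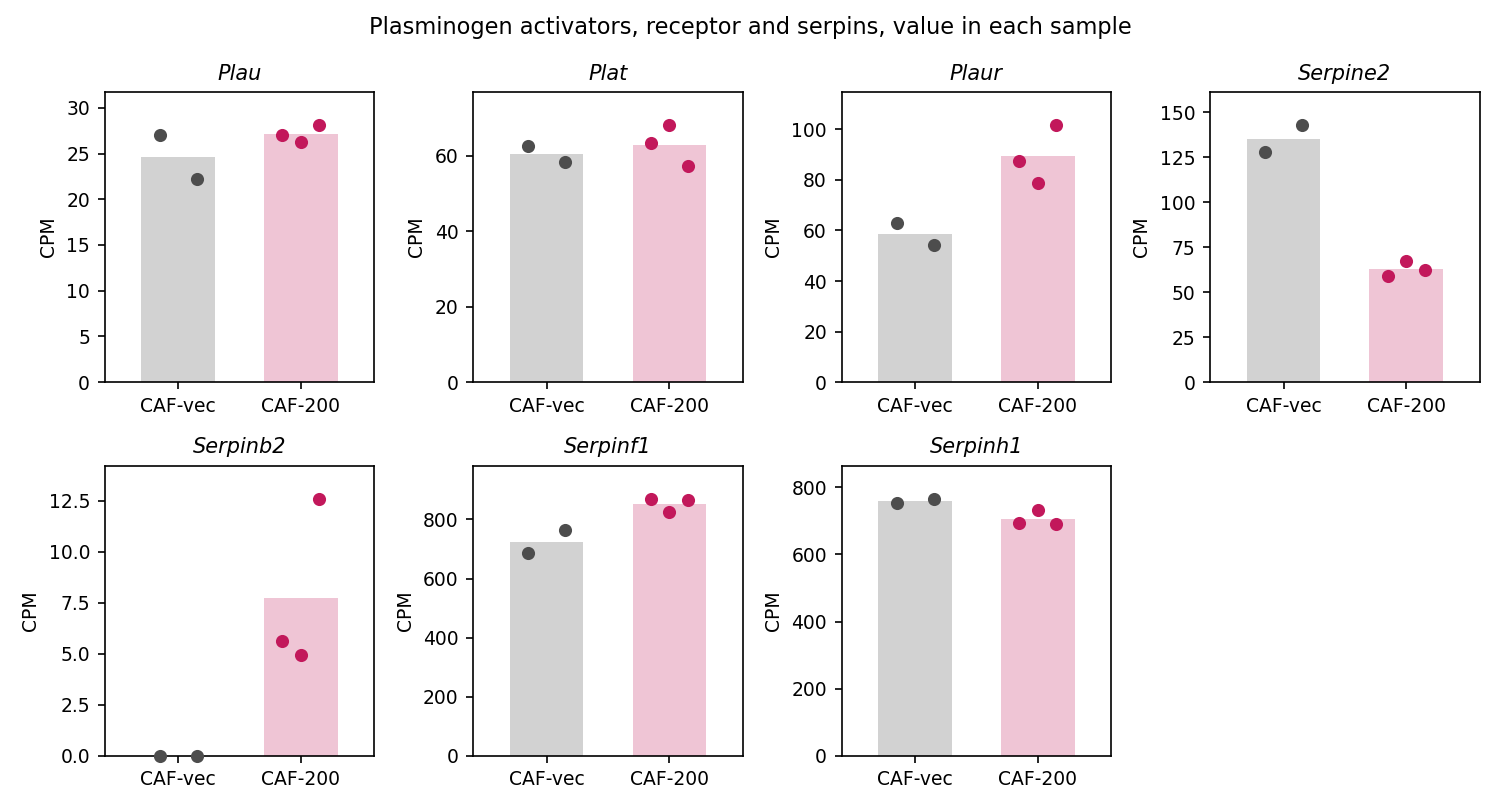
Each panel plots 1 gene, with CPM on the y axis from 0, 1 point per sample and the bar at the group mean, for CAF-vec (n = 2) and CAF-200 (n = 3). *Serpine2* was lower in all CAF-200 samples, *Plaur* higher, *Serpinb2* at 0 in both CAF-vec samples, and *Plau* and *Plat* overlapped.

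*Plau* (ENSMUSG00000021822, chromosome 14, 20836660 to 20843385, plus strand, in GRCm38 as are all positions here) encodes urokinase. It was at 27.0 and 22.2 CPM in the control samples and at 27.0, 26.3 and 28.1 CPM with miR-200. The first CAF-vec sample was level with the CAF-200 samples and the second lay below them. The means were 24.6 ± 3.40 CPM (SD, n = 2) and 27.1 ± 0.909 CPM (SD, n = 3), and the log2 fold-change of CAF-200 over CAF-vec, computed on log2(CPM + 0.5), was 0.14 (standard error 0.112). It was 0.00 without CAF-vec 2 and 0.28 without CAF-vec 1, so its size rested on which control sample was used.

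*Plat* (ENSMUSG00000031538, chromosome 8, 22757727 to 22782844, plus strand) encodes tissue-type plasminogen activator, which is best known for dissolving fibrin clots. It was at 62.5 and 58.3 CPM in CAF-vec, against 63.4, 68.0 and 57.3 CPM in CAF-200. The lowest and the highest sample both belonged to CAF-200. The means of 60.4 ± 2.91 CPM (SD, n = 2) and 62.9 ± 5.37 CPM (SD, n = 3) differed by a log2 fold-change of 0.06 (standard error 0.105), smaller than the spread within CAF-200, and without CAF-200 2 it was -0.00.

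The balance between the activators overlapped between the groups as well. Per kilobase of annotated exon, the ratio of *Plau* to *Plat* was 1.14 and 1.00 in CAF-vec and 1.12, 1.02 and 1.29 in CAF-200. *Plau* thus made up 50.1% to 53.3% of the summed activator level in CAF-vec and 50.5% to 56.4% in CAF-200. Which activator was higher depended on the length used, since per kilobase of the longest transcript the share of *Plau* was 39.7% to 42.7% in CAF-vec and 40.0% to 45.8% in CAF-200. A change of length scales the ratio of every sample by the same factor, so it could not alter whether the groups overlapped.

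*Plaur* (ENSMUSG00000046223, chromosome 7, 24462484 to 24475968, plus strand) encodes the urokinase receptor, which is tethered to the outer membrane by a lipid anchor. It was at 63.0 and 54.4 CPM in CAF-vec and at 87.6, 78.9 and 101.5 CPM in CAF-200. Every CAF-200 sample was above both CAF-vec samples. The means were 58.7 ± 6.14 CPM (SD, n = 2) and 89.4 ± 11.4 CPM (SD, n = 3), a ratio of 1.52 and a log2 fold-change of 0.60 (standard error 0.137), which ranged from 0.49 to 0.70 when single samples were left out. The receptor was therefore higher in CAF-200 while the mean of its ligand gene *Plau* differed by a ratio of 1.10. Macrophages also express *Plaur*. Of the 7 macrophage and leukocyte markers, *Lyz2* was higher in all CAF-200 samples, *Ptprc* was at 0 in CAF-vec and at 0.0404 CPM or less in CAF-200, *Csf1r* and *Cd68* overlapped between the groups, and the sum without *Lyz2* was lower in CAF-200. The part of macrophages in the *Plaur* values was not tested.

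Promoter sequences from RefSeq (GRCm38.p6, 250 bases before to 50 after the start) were matched for 5 of the 7 members, with 6 promoters in all. In all, 3 short motifs were searched on both strands (a choice made with the values in view). The AP-1 motif, TGACTCA or TGAGTCA, was in the *Plaur* promoter and in 5.20% of 32851 promoters. It lay at base -69 from the start, and the window is shown on the plus strand with the motif in capitals.
*Plaur* (chr7:24462403-24462431): acccctggagcTGACTCActctttagcaa
The other motif found was TATAAA (or TTTATA), in both overlapping *Serpinb2* promoters and in 13.6% of all promoters, at base -29 from the first of the starts.
*Serpinb2* (chr1:107511383-107511411): gggcagagtctTATAAAaccagtcattac
The E-box CACCTG (or CAGGTG), the motif that ZEB1 binds, was in 0 of the 6 promoters and in 20.2% of all. None of these matches bears on whether a factor was bound.

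*Serpine2* (ENSMUSG00000026249, chromosome 1, 79794197 to 79861180, minus strand) had the largest difference on the log2 scale of the 6 members that were above 0 in both groups. It encodes protease nexin-1, a secreted inhibitor of thrombin, urokinase and tissue-type plasminogen activator. It was at 127.7 and 142.6 CPM in CAF-vec and at 58.8, 67.4 and 62.5 CPM in CAF-200. All CAF-200 samples were far below both CAF-vec samples. The means were 135.2 ± 10.5 CPM (SD, n = 2) and 62.9 ± 4.34 CPM (SD, n = 3), a ratio of 0.465 and a log2 fold-change of -1.10 (standard error 0.102). It was -1.18 to -1.02 with single samples left out and -1.001 after centring.

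*Serpinb2* (ENSMUSG00000062345, chromosome 1, 107511423 to 107535478, plus strand) encodes PAI-2, an inhibitor of urokinase that is found mostly inside the cell and is known to be induced in macrophages and stressed cells. Both control samples list it at 0, and the miR-200 samples list it at 5.61, 4.93 and 12.6 CPM. The third CAF-200 sample was 2.56 times the lowest, and their range of 1.27 on log2(CPM + 0.5) was exceeded by 0.345% of all genes tested. No fold-change is given against samples at 0 in a table without counts. *Serpinb2* passed the filter on low values through the CAF-200 samples only, so that a difference between the groups was built into its being tested.

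A 0 in the table did not always stand beside low values. The highest value of a gene listed at 0 in another sample was 116 CPM, and of 1205 genes at 0 in 1 of the CAF-vec samples, 5 were at least as high in the other as the lowest CAF-200 value of *Serpinb2*. Both CAF-vec samples were at 0 for 7053 genes, and 1262 of these were above 0 in a CAF-200 sample. The groups differed in how low values appear, since 0 genes were at 0 in some but not all CAF-200 samples, and 129 of the 1262 were under the commonest low value (0.0102 to 0.0105 CPM) in every CAF-200 sample. By mean CPM in CAF-200, *Serpinb2* ranked 1 among them. The only other such gene at 1 CPM or more in every CAF-200 sample was *Sprr2h*, chosen after its values were seen, at 1.67, 1.23 and 2.75 CPM. Of 20 genes that most cells use, 0 were at 0 in any sample, and their lowest value was 14.5 CPM. In annotation *Serpinb2* overlaps *Serpinb10* on the same strand, a gene not analysed here, so reads shared by the genes could not be separated. Of the macrophage and leukocyte markers, *Lyz2* was higher in all CAF-200 samples (1.11 and 1.99 against 7.48, 7.16 and 6.48 CPM). *Ptprc* was at 0.0404 CPM or less and *Adgre1* at 0 in every sample. The sum without *Lyz2* was 7.23 to 7.41 CPM in CAF-vec against 4.73 to 5.99 CPM in CAF-200. Nearly all of that sum was *Csf1r* and *Cd68*, each of which overlapped between the groups. The part of *Lyz2*-expressing cells in the *Serpinb2* values was not tested.

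Other serpins of this stretch of chromosome 1 were compared with *Serpinb2*, leaving out *Serpinb10*. Of the 11 in the table, *Serpinb2* included, 8 were at 0 in every sample. The nearest serpin analysed on one side, *Serpinb7*, 58734 bases away, was at 0.0282 CPM in CAF-vec 1 and at 0 elsewhere. The nearest analysed on the other side, *Serpinb8*, 54528 bases away, was at 37.1 and 36.9 CPM in CAF-vec and at 19.0, 18.5 and 20.8 CPM in CAF-200. Its log2 fold-change was -0.92 (standard error 0.0925, limma adjusted *p* = 0.00343 with adjustment over all 12175 genes), so it was lower in all 3 CAF-200 samples in which *Serpinb2* was above 0. These genes were chosen by position after the values were seen.

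*Serpinf1* (ENSMUSG00000000753, chromosome 11, 75409769 to 75422701, minus strand) encodes PEDF, a secreted protein known for inhibiting angiogenesis. It was at 685 and 763 CPM in CAF-vec and at 870, 826 and 866 CPM in CAF-200. The CAF-200 samples were close to each other and above both CAF-vec samples. The means were 724 ± 55.1 CPM (SD, n = 2) and 854 ± 24.0 CPM (SD, n = 3), a ratio of 1.18 and a log2 fold-change of 0.24 (standard error 0.110). It was 0.34 after centring, 0.16 without CAF-vec 1 and 0.32 without CAF-vec 2.

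*Serpinh1* (ENSMUSG00000070436, chromosome 7, 99345376 to 99353239, minus strand) encodes HSP47, the chaperone that procollagen needs to leave the endoplasmic reticulum correctly folded. It was at 754 and 766 CPM in CAF-vec and at 695, 733 and 692 CPM in CAF-200. The CAF-200 samples were slightly below both CAF-vec samples. The means were 760 ± 8.02 CPM (SD, n = 2) and 706 ± 22.9 CPM (SD, n = 3), and the log2 fold-change was -0.11 (standard error 0.10). After centring it was -0.01 and the groups overlapped.

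The spread between samples of a group was set against that of all genes. The log2 difference between the CAF-vec samples was 0.0215 (*Serpinh1*) to 0.277 (*Plau*) for the 6 members above 0 in them, against a median of 0.282 over all genes tested. The log2 range over the CAF-200 samples was 0.0741 (*Serpinf1*) to 0.362 (*Plaur*), against a median of 0.141 over all genes. *Plaur* was thus the most variable of these 6 members in CAF-200 and *Plau* in CAF-vec.

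The members differed widely in level. Per kilobase of annotated exon, the order in CAF-vec was *Serpinh1* (311 ± 3.28 CPM per kilobase, SD, n = 2), *Serpinf1* (307 ± 23.4), *Plaur* (22.4 ± 2.35), *Serpine2* (16.3 ± 1.27), *Plau* (10.4 ± 1.44) and *Plat* (9.68 ± 0.467), with *Serpinb2* at 0. *Serpinh1* and *Serpinf1* overlapped between samples, as did *Plau* and *Plat*, and the other neighbours in this order did not. In CAF-200 the order was *Serpinf1* (362 ± 10.2 CPM per kilobase, SD, n = 3), *Serpinh1* (289 ± 9.37), *Plaur* (34.1 ± 4.37), *Plau* (11.5 ± 0.384), *Plat* (10.1 ± 0.861), *Serpine2* (7.59 ± 0.524) and *Serpinb2* (3.28 ± 1.81), and no neighbours overlapped. *Serpine2* thus went from above both activators in CAF-vec to below both in CAF-200. That place depended on the length used. With the longest annotated transcript instead of all exons, *Serpine2* was at 39.8 CPM per kilobase in CAF-vec, above *Plaur* at 29.2, and at 18.5 in CAF-200, above *Plat* at 15.6 and *Plau* at 11.6.

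The genes that act with the members came from lists chosen by function, and these genes were tested in limma across all genes. A gene counts as called if its adjusted *p* was under 0.01 and its log2 fold-change beyond 1 in either direction, as was true of 4.72% of all genes tested (2.37% higher and 2.35% lower in CAF-200). Of 51 listed genes tested, 1 was higher and 3 lower. The 3 include *Serpina9*, which passed the filter through CAF-vec only, so a difference was built into its being tested. With the filter raised to 1 CPM in all samples, 1 listed gene was higher and 1 lower. At an unadjusted *p* under 0.05 in limma, 17.3% of all genes were higher and 27.6% lower. With any CAF-200 sample left out at most 1 of all 12175 genes was called, so that the loss of all 4 listed calls there says nothing about these genes. Their log2 fold-changes were then 1.24 to 1.39 for *F3*, -1.46 to -1.29 for *Clec3b*, -1.39 to -1.34 for *Serpinb1a* and -1.37 to -1.31 for *Serpina9*. Under a replicate block, 0 listed genes were called, beside 101 higher and 70 lower among all genes. The log2 fold-changes were then 1.39 for *F3*, -1.29 for *Clec3b*, -1.34 for *Serpinb1a* and -1.35 for *Serpina9*.

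Among the other proteins that make, hold or inhibit plasmin, 8 of 18 were tested, with 0 called higher, 1 called lower (2 higher and 2 lower at an unadjusted *p* under 0.05, limma) and a median log2 fold-change of -0.09. Plasminogen itself (*Plg*), which the liver makes, was at 0.0196 CPM in CAF-vec 2 and at 0 in the other samples and was not tested. The plasmin partner called was *Clec3b*, which encodes the plasminogen-binding protein tetranectin, with a log2 fold-change of -1.37 (limma adjusted *p* = 0.00421).

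The 3 plasmin partners with the highest mean CPM were not called. *Anxa2*, which encodes annexin A2, was at 656 and 686 CPM in CAF-vec and 1000, 979 and 1021 CPM in CAF-200 (log2 fold-change 0.58, limma adjusted *p* = 0.0128). *Eno1*, an enzyme of glycolysis that also binds plasminogen on the cell surface, overlapped between the groups (log2 fold-change 0.19, limma adjusted *p* = 0.485), and the value was -0.12 without CAF-vec 2. *Lrp1*, which encodes a receptor that clears activator and inhibitor complexes, overlapped as well (log2 fold-change -0.25, limma adjusted *p* = 0.308), with -0.03 without CAF-vec 1 and -0.48 without CAF-vec 2 (limma adjusted *p* = 0.00804).

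Of 56 other serpins in the table, 14 were tested, with 0 called higher, 2 called lower (3 higher and 7 lower at an unadjusted *p* under 0.05, limma) and a median log2 fold-change of -0.51, against -0.09 for all genes. Of these, 4 (*Serpina3i*, *Serpini1*, *Serpina9* and *Serpinb9c*) lay below the 0.5 CPM minimum in every sample of one group and were tested only through the other, so a difference was built into their being tested. With the filter raised to 1 CPM in all samples, 8 were left, of which 1 was higher and 5 were lower at an unadjusted *p* under 0.05 (limma). *Serpinb1a*, which encodes an inhibitor of neutrophil proteases, fell from 20.02 and 23.1 CPM to 8.04, 8.33 and 7.81 CPM (log2 fold-change -1.36, standard error 0.105, limma adjusted *p* = 0.00252). *Serpina9* was at 0.832 and 0.949 CPM in CAF-vec and at 0.0204, 0.0716 and 0.0514 CPM in CAF-200 (log2 fold-change -1.34, limma adjusted *p* = 0.00494). Its log2 fold-change was -0.85 with a pseudocount of 1 CPM, where it was not called, and -2.76 with 0.1 CPM. A further 3 were lower at the adjusted *p*, which 10.0% of all genes passed at any size, with a log2 fold-change short of 1, namely *Serpinb8*, *Serpinb9* (-0.91) and *Serpinb9b* (-0.99, limma adjusted *p* = 0.00587). *Serpinb6a*, the most abundant serpin of the list, had a log2 fold-change of 0.53 (limma adjusted *p* = 0.0244), and *Serpinb6b* one of -0.48 (limma adjusted *p* = 0.0983), or -0.73 without CAF-vec 1 and -0.23 without CAF-vec 2. Several of these genes have close copies on chromosomes 12 and 13, among which the authors' counting could split reads, so single values of *Serpinb1a*, *Serpinb6a*, *Serpinb6b* and *Serpinb9b* are uncertain.

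**Figure D2:**
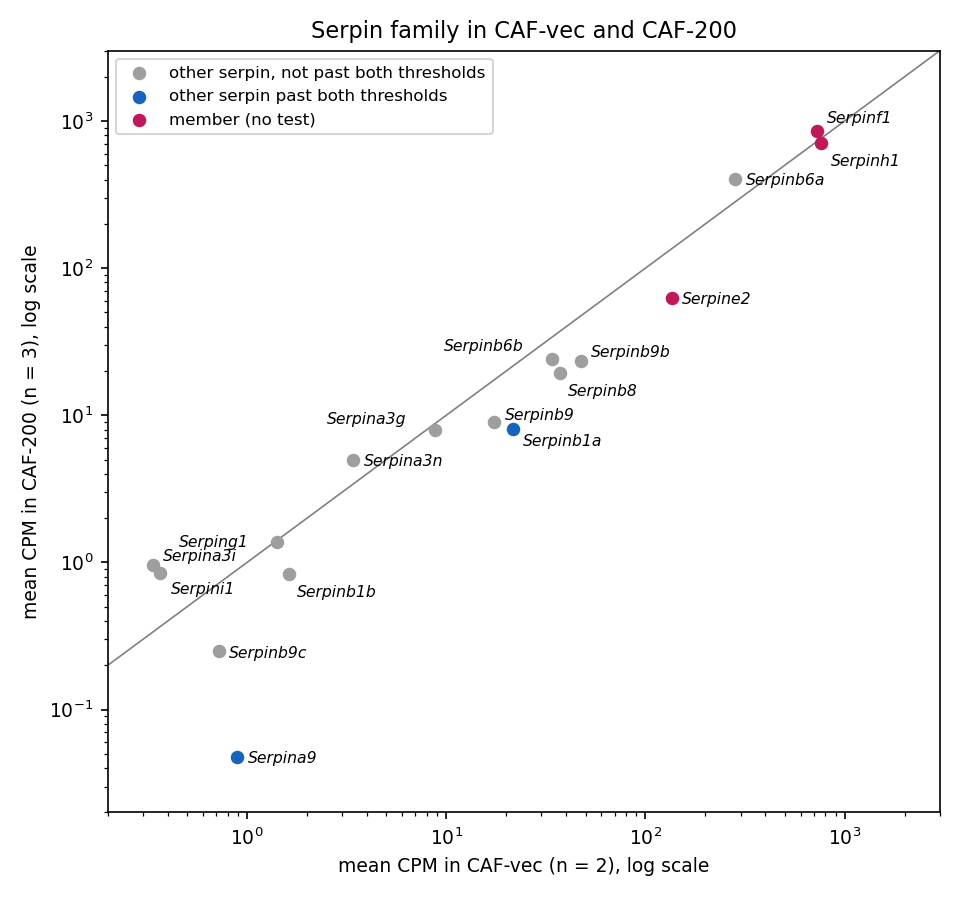
Each point is a serpin, plotted by its mean CPM in CAF-vec (x axis, n = 2) and in CAF-200 (y axis, n = 3), both on log scales, with the grey line at equal values and *Serpinb2* left out since it was at 0 in CAF-vec. *Serpine2*, *Serpinb1a* and *Serpina9* lie below the line, while *Serpinf1* and *Serpinh1* lie beside it.

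*Serpine2* inhibits thrombin, and of 26 thrombin and clotting genes 7 were tested, with 1 called higher, 0 called lower (4 higher and 1 lower at an unadjusted *p* under 0.05, limma) and a median log2 fold-change of 0.38. *F3*, which encodes tissue factor, the trigger of clotting, rose from 92.8 and 110.1 CPM to 259, 273 and 221 CPM (log2 fold-change 1.30, standard error 0.134, limma adjusted *p* = 0.00363). *F2r*, the thrombin receptor, was at 733 and 790 CPM in CAF-vec and at 546, 555 and 532 CPM in CAF-200 (log2 fold-change -0.48, limma adjusted *p* = 0.0189). *Thbd*, thrombomodulin, had a log2 fold-change of -0.18 (limma adjusted *p* = 0.229), or -0.09 without CAF-vec 1 and -0.26 without CAF-vec 2. The groups of *F3* and *F2r* did not overlap, and those of *Thbd* did.

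**Figure D3:**
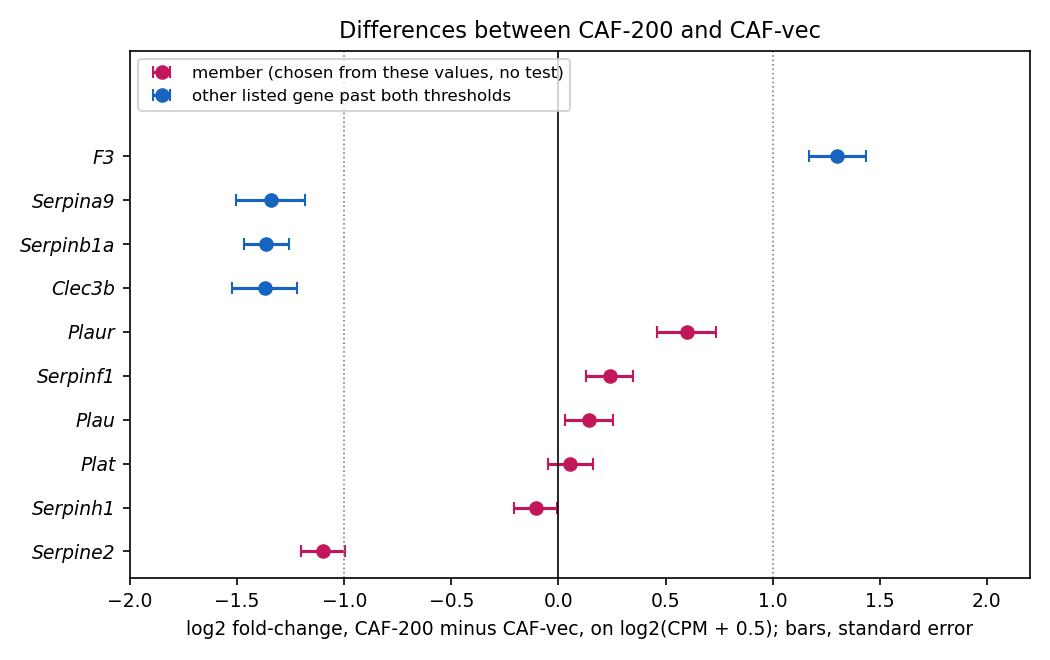
Points are log2 fold-changes of CAF-200 over CAF-vec on log2(CPM + 0.5), with standard errors as bars and dotted lines at -1 and 1, for 6 members (pink, no test) and the 4 other listed genes that were called (blue). *Serpine2* at -1.10 and *Plaur* at 0.60 lie farthest from 0 among the members, and *F3* at 1.30 is the largest rise shown.

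*Serpinh1* works with the enzymes and chaperones that fold procollagen, of which 22 of 22 were tested and 0 were called in either direction, with a median log2 fold-change of -0.27. At an unadjusted *p* under 0.05 in limma, 3 of the 22 were higher and 8 lower, beside 17.3% and 27.6% of all genes, and 1 of them was higher (*P4ha3*, 0.92) and 1 lower (*Kdelr3*, -0.90) at the adjusted *p* alone. The most abundant were *Hsp90b1* (log2 fold-change -0.37, limma adjusted *p* = 0.116), *P4hb* (-0.32, adjusted *p* = 0.444) and *Hspa5* (-0.58, adjusted *p* = 0.0462). *P4hb* was at 1145 CPM in CAF-vec 1 and 548 CPM in CAF-vec 2, and without CAF-vec 1 its log2 fold-change was 0.21. *Hsp90b1* was at -0.18 without CAF-vec 1 and -0.57 without CAF-vec 2, and *Hspa5* at -0.33 and -0.82, on the same scale. *Serpinh1*, by contrast, differed by 0.0215 on the log2 scale between these samples.

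For each member, the 2 genes with the most similar profile over the 5 samples were found among 11517 genes with a mean of at least 1 CPM, by the root mean square distance of centred log2(CPM + 0.5) values. For *Plaur* these were *Tgfb1*, which encodes the cytokine TGF-β1 (distance 0.0340), and *Tmcc3* (0.0505). For *Serpine2* they included *Dpt*, which encodes the matrix protein dermatopontin (0.0503). The values of *Tgfb1* were 19.8 and 17.9 CPM in CAF-vec and 28.7, 24.7 and 31.8 CPM in CAF-200. Both *Tgfb1* and *Tmcc3* had the same order of samples as *Plaur*, which their choice by profile favours. For *Plau* they were *Apip* (0.0180) and *Yy2* (0.0194), and for *Plat* *Parpbp* (0.0242) and *Clpb* (0.0287). For *Serpinf1* they were *Tigd2* (0.00764) and *Zkscan2* (0.0164), and for *Serpinh1* *Bloc1s1* (0.0109) and *Fzd6* (0.0165). *Serpinb2* had no profile as close, since the nearest were *Rgs16* (0.331) and *Lgr6* (0.441), which were also under 1 CPM in both CAF-vec samples. Likeness over 5 samples in 2 groups is a description and carries no test.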

How the data were processed

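The authors prepared stranded mRNA libraries of 2 CAF-vec and 3 CAF-200 samples and deposited normalized CPM values. The submitters' processing notes name FastQC, cutadapt, Trimmomatic, STAR, RSEM, edgeR, GRCm38 and mm10, without versions. Whole reads could not be recovered from the deposited CPM (30.1% to 72.8% of low values were within 0.1 of a whole multiple of the commonest low value), so the depth is unknown and no count test was run. All 5 sample columns were used (0 left out).

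Here, log2(CPM + 0.5) was fitted with limma 3.58.1 (R 4.3.3, variance trend, no covariates) for the 12175 of 21835 genes that reached 0.5 CPM in 2 or more samples, and *p* values were adjusted over all of them (Benjamini-Hochberg). Adding 0.5 CPM understates the fold-changes of low genes. Genes were called at the study's thresholds. Annotation was GENCODE M21 (GRCm38, 21795 genes named) and sequences were from RefSeq (GRCm38.p6). The members and the gene lists were chosen with earlier results of these data known. Named genes are the members, listed genes called, the 3 listed genes of each list with the highest mean CPM, and the 2 genes most like each member. *Zeb1* and the others named were added after values were seen. Some genes of the lists or rules are not reported here, and list counts leave them out. Python 3.11.15 with pandas 2.3.3, numpy 2.4.6 and matplotlib 3.10.9 was used.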

Additional observations from a re-analysis of the deposited data

How the results depend on the processing

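Alternatives were a pseudocount of 1 or 0.1, the low-value filter dropped or raised to 1 CPM in all samples, centring, no variance trend, an adjusted *p* under 0.05, the omission of single samples, and a replicate block. Over all genes, 289 were called higher and 286 lower. With the replicate block these were 101 and 70, and with single samples left out 0 to 625 and 0 to 955. The highest counts came without CAF-vec 2, and without CAF-200 1, 2 or 3 there were at most 1 and 0 (1505 to 1558 higher and 2316 to 2552 lower at an unadjusted *p* under 0.05, limma). At an adjusted *p* under 0.05 in limma, 368 were called higher and 436 lower. Of the calls, 49.7% were lower, against 38.4% after centring. Of listed genes, 1 was higher (2 after centring) and 3 lower. These were 0 and 0 with the replicate block (11 and 13 at an unadjusted *p* under 0.05), 0 to 2 and 0 to 6 with samples left out (2 higher and 6 lower without CAF-vec 1, 5 lower without CAF-vec 2, and 0 of either without CAF-200 1, 2 or 3, where 8 to 10 higher and 13 to 14 lower had an unadjusted *p* under 0.05), and 1 lower with the filter raised to 1 CPM in all samples, which leaves out *Clec3b* and *Serpina9*. *P4hb* reversed without CAF-vec 1, from a log2 fold-change of -0.32 to 0.209, and was -0.854 without CAF-vec 2. With the 8-base match, 1 member instead of 2 held a miR-200a site. *Eno1* reversed without CAF-vec 2, from 0.19 to -0.116, and was 0.493 without CAF-vec 1. The cause of these changes was not tested.

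The replicate numbers are shared by 2 pairs of samples, and the labels do not say what they mark. The deviations of same-numbered samples from their group means had correlations of 0.25 and 0.13. A differently numbered pair, CAF-200 3 with CAF-vec 2, reached 0.12. With 2 CAF-vec samples, the deviations of one mirror those of the other, so these values are not independent and do not show that the numbers pair the samples. With the replicate block, the log2 fold-change was 0.50 for *Plaur* and -1.09 for *Serpine2*. These leave out CAF-200 3, whose number no control shares. Without a CAF-vec sample, the lone control is assumed to vary like the CAF-200 samples. The unknown depth leaves the precision of low values, such as those of *Serpinb2*, unknown.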
